A study of Rattus norvegicus with 3 samples.

Results

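The genes described here are the amino acid, glucose and neurotransmitter transporters of 10 solute carrier families, measured on 1-colour oligonucleotide arrays in RNA labelled as rat adrenal medulla. Each title also opens with the unexplained phrase Multiple Organs, so it is not known from the labels whether tissue beyond the medulla was included. A gene was taken in when a probe set carried a single annotated symbol of the families Slc1a, Slc2a, Slc3a, Slc5a, Slc6a, Slc7a, Slc16a, Slc17a, Slc36a or Slc38a, with Slc6a2 left out. The rule gave 83 genes on 111 probe sets, out of 14217 genes with a single symbol. Each gene is represented by its probe set with the highest mean log2(intensity + 16) over the 7-day array and 1-day array b. One of the 83, Slc7a6os, is named for its place beside Slc7a6 and encodes no transporter.

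The series holds 3 arrays from rats kept in the cold, 1 after 7 days and 2 after 1 day (arrays a and b). All the rats had been in the cold, and arrays of rats kept outside it were not analysed here, which leaves 7 days against 1 day to compare. The labels name no strain, sex, age or genotype and do not say whether animals were pooled or whether arrays a and b come from separate animals. The spread within the 1-day pair may therefore be of technical origin, and with 3 arrays each value is known only roughly.

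Solute carriers move small molecules across membranes, some by letting them run down their gradient and others by coupling them to sodium, protons or chloride or by exchanging a substrate for another. Amino acid carriers feed protein synthesis and supply tyrosine for catecholamines, glucose and monocarboxylate carriers serve energy metabolism, and the sodium-coupled Slc6 carriers clear transmitters and bring in osmolytes and creatine. Chromaffin cells, the adrenaline- and noradrenaline-making cells of the adrenal medulla, share many of these carriers with neurons.

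Array quality bears on every value. Gene probe sets had a median intensity of 675 on the 7-day array, against 593 and 1580 on 1-day arrays b and a, and the 3′ to 5′ ratio of the beta-actin controls was 8.87 for the 7-day sample, 6.11 for sample b and 231 for sample a. Over the 40 transporter genes kept by the intensity filter, the rank correlation across genes was 0.969 for the 7-day array with 1-day array b and 0.863 for the 7-day array with 1-day array a (Spearman, a description, since genes of an array are not independent). The SD of the log2 difference over these genes was 0.42 for the first pair and 1.21 for the second. Probe sets and kept genes were both chosen on the 7-day array and 1-day array b, which favours that pair in these values. In view of the actin ratio of sample a, differences against 1-day array b lead below, and those against 1-day array a stand beside them. Whether RNA quality plays a part in them was not tested. All 9 chromaffin cell markers that were measured were kept, and 5 of them were higher and 4 lower on the 7-day array than on 1-day array b. The catecholamine enzyme Th read 224786 on the 7-day array, against 193597 and 79575 on 1-day arrays b and a, and the chromaffin granule protein Chga read 200638, against 157202 and 628429. The transcription factor Gata3 read 9008 on the 7-day array, against 16594 and 10265. Markers of the adrenal cortex were bright too, with Star at 277066 on the 7-day array against 208111 and 602316 on 1-day arrays b and a, so cortex transcripts were present beside those of the medulla.

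Which members gave the strongest signal was asked first. A probe set's brightness depends on how well its probes bind as well as on the amount of RNA, so the order below is an order of signal and not of transcript number. A level is given as intensity in the authors' scaled units, and its percentile is the share of all 31042 gene probe sets at or below it on the same array. A gene counts as kept when its mean log2(intensity + 16) over the 7-day array and 1-day array b reached 9.30, the median of all gene probe sets, an intensity of about 614. Of the 83 genes, 40 were kept and 43 fell below. Of all 14217 genes, each also taken by its brightest probe set, 9398 were kept, so the members were kept less often than genes in general. The dimmest kept genes were Slc5a7 and Slc2a6 (9.39 and 9.42), and the brightest below the filter were Slc6a20a and Slc16a7 (8.94 and 8.89).

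**Figure D1:**
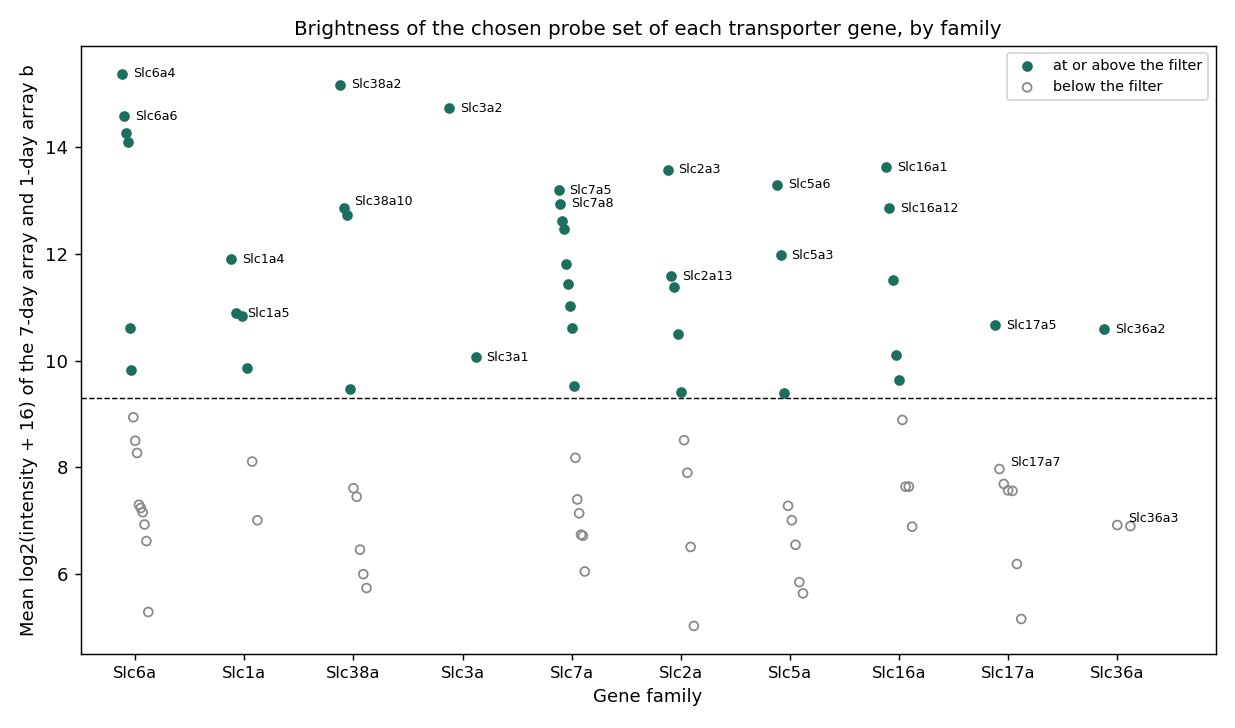
Each point is the chosen probe set of a transporter gene, with gene families on the x axis and the mean log2(intensity + 16) of the 7-day array and 1-day array b on the y axis; filled points reached the filter at 9.30 (dashed line), open points did not, and the 2 brightest of each family are named. The brightest points belong to Slc6a4, Slc38a2 and Slc3a2, and the Slc17a and Slc36a families have 1 filled point each.

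The brightest member was Slc6a4, the plasma membrane serotonin transporter. It read 38707 on the 7-day array, against 47004 on 1-day array b and 17217 on 1-day array a, which is percentile 98.2, 98.7 and 97.0. Slc38a2, the sodium-coupled neutral amino acid transporter SNAT2, came next with 35845 on the 7-day array, against 37970 and 25359 on 1-day arrays b and a. Slc3a2, the glycoprotein heavy chain that several Slc7 exchangers need to reach the plasma membrane, read 25408 on the 7-day array, against 29023 and 8605 on 1-day arrays b and a. Slc6a6, the taurine transporter, read 23759 on the 7-day array, against 25105 and 17040. Slc6a17, a synaptic vesicle carrier of neutral amino acids in neurons, read 17342 on the 7-day array, against 22462 and 26572. Slc6a8, the creatine transporter, read 19917 on the 7-day array, against 15262 and 8763. Slc16a1, the lactate and pyruvate carrier MCT1, and Slc2a3, the glucose transporter GLUT3 of neurons, completed the first 8. These 8 were also the 8 brightest members on 1-day array b, and 7 of them were so on the 7-day array and 6 on 1-day array a. The Slc6a family thus supplied 4 of the 6 brightest members, while 9 of its 15 genes lay below the filter.

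Within families the leading member was the same on all 3 arrays for Slc1a (Slc1a4), Slc2a (Slc2a3), Slc3a (Slc3a2), Slc5a (Slc5a6), Slc36a (Slc36a2) and Slc38a (Slc38a2). For Slc2a this rests on the chosen probe sets. A second kept probe set of Slc2a13 read 5660 on 1-day array a, above Slc2a3 at 5191. On 1-day array a the brightest member was Slc6a17 in Slc6a, Slc7a1 in Slc7a, Slc16a12 in Slc16a and Slc17a1 in Slc17a, in place of Slc6a4, Slc7a5, Slc16a1 and Slc17a5. At least 1 member of every family was kept. The kept share was 6 of 15 in Slc6a, 9 of 15 in Slc7a, 5 of 9 in Slc2a, 5 of 9 in Slc16a, 4 of 9 in Slc38a, 4 of 6 in Slc1a, 3 of 8 in Slc5a, 2 of 2 in Slc3a, 1 of 7 in Slc17a and 1 of 3 in Slc36a.

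**Figure D2:**
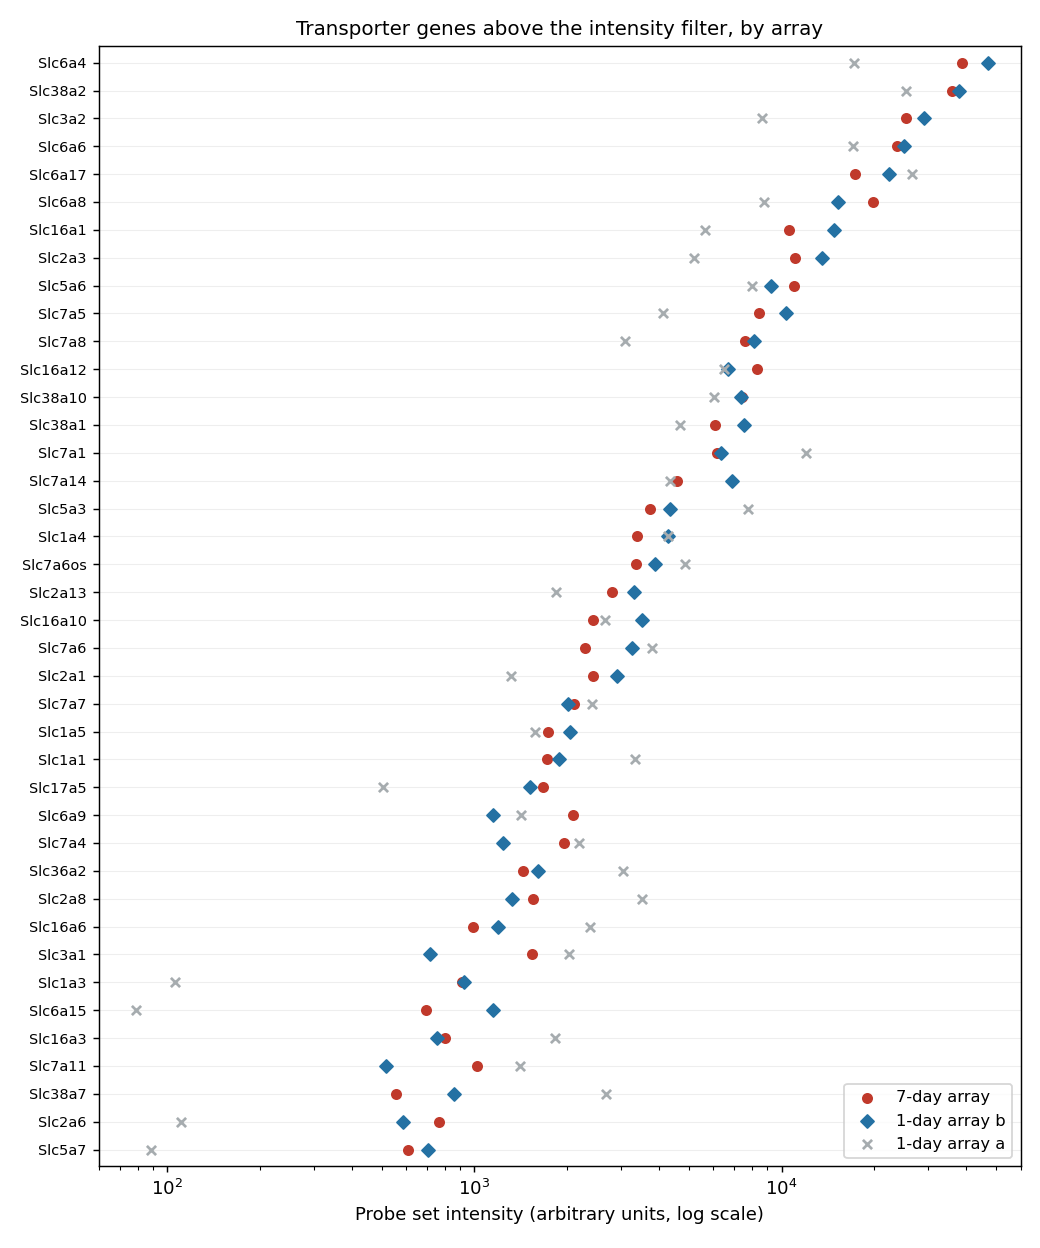
The 40 kept genes run down the page from brightest to dimmest, with probe set intensity on a log x axis; circles are the 7-day array, diamonds 1-day array b and crosses 1-day array a. Circles and diamonds lie close together for most genes, while crosses lie farther away, most of all for Slc6a15, Slc1a3, Slc5a7 and Slc2a6, which read 79.1 to 111 on 1-day array a. The filter did not use 1-day array a, and these genes fell below the filter on all 3 arrays that limma used.

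Next, the 7-day array was set against 1-day array b. This compares 2 arrays and has no replicate check, so no p-value is given. Genes at least 1.5-fold apart are counted instead, on the log2(intensity + 16) scale, which shrinks differences of dim genes. Of the 40 kept members, 4 were at least 1.5-fold higher on the 7-day array (Slc3a1, Slc7a11, Slc6a9 and Slc7a4) and 3 at least 1.5-fold lower (Slc6a15, Slc38a7 and Slc7a14). Among all 9398 kept genes the same rule took 3.39% in each direction, so these counts are 10% and 7.5% of the members beside 3.39% and 3.39%. At 2-fold the members were 1 higher and 0 lower, with 0.511% and 0.447% of all kept genes. All 7 genes past 1.5-fold lay in the dimmer part of the kept list except Slc7a14. The filter is a mean over the same arrays that are compared. Slc7a11, at 514 on 1-day array b, passed it through its 7-day value of 1016, and Slc38a7, at 554 on the 7-day array, passed it through 860 on 1-day array b, so for these genes passing and differing are linked. In such whole-tissue RNA, fewer cells of a type and less RNA per cell cannot be told apart.

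The other kept members moved little, mostly to the lower side. In all, 27 of 40 read lower on the 7-day array than on 1-day array b and 13 higher, with a median log2 difference of -0.18. Of all kept genes 51.9% read lower, with a median of -0.01. Median centring moved the median of all kept genes to -0.20 and that of the members to -0.36. With the probe sets of a gene averaged in place of taking the brightest, 21 of 39 members were lower and their median was -0.08, beside 49.9% of all genes and a median of 0.00. Under 6 settings of pseudocount and scaling, 26 kept members were lower in each, 9 were higher in each and 5 changed sign. The same count was not made for all genes. Taken setting by setting, 67.5% to 77.5% of kept members read lower, beside 49.8% to 76.1% of all kept genes. Both upper values came with median centring. Against 1-day array a the kept members had a median of 0.33, with 17 of 40 lower. For all kept genes the median was 0.18, with 43.7% lower.

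With both 1-day arrays used, 7 kept members read above both on the 7-day array and 11 below both, that is 17.5% and 27.5%, beside 27.4% and 22.9% of all kept genes. The 7 above both were Slc6a8, Slc5a6, Slc16a12, Slc38a10, Slc17a5, Slc6a9 and Slc2a6. The 11 below both were Slc6a17, Slc7a1, Slc5a3, Slc1a4, Slc7a6os, Slc16a10, Slc7a6, Slc1a1, Slc36a2, Slc16a6 and Slc38a7. Of these 18, Slc38a7 alone lay at least 1.5-fold beyond both 1-day arrays. The share of all kept genes beyond both by that much was not computed, so this count has no background beside it. Limma's moderated test of 7 days against 1 day, fitted to 15521 probe sets on all 3 arrays, called 0% of them at an adjusted p under 0.05 and 0 of the 36 members that passed its own filter. An unadjusted p under 0.05 was reached by 0 of these 36 members and by 70 probe sets in all (0.451%). The fit has 1 residual degree of freedom, from the 1-day pair, and assumes that the lone 7-day array varies like the 1-day arrays.

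**Figure D3:**
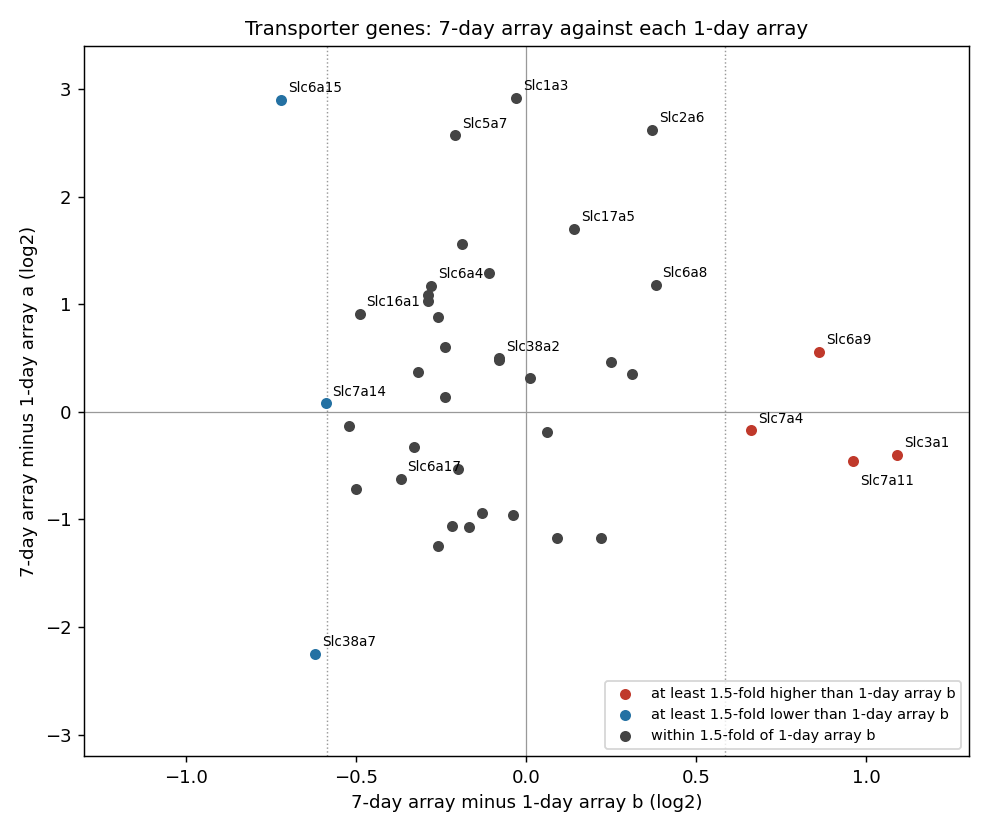
Each point is a kept transporter gene, with the log2 difference of the 7-day array from 1-day array b on the x axis and from 1-day array a on the y axis; dotted lines mark 1.5-fold against 1-day array b. Of the 7 genes past those lines, Slc6a9 lies above 0 and Slc38a7 below 0 on both axes, while Slc3a1, Slc7a11, Slc7a4, Slc6a15 and Slc7a14 change sign between the axes.

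Carriers of transmitters, osmolytes and creatine (Slc6a) stayed close to 1-day array b at the bright end. The log2 difference of the 7-day array from 1-day array b was -0.28 for Slc6a4, -0.08 for Slc6a6, -0.37 for Slc6a17 and 0.38 for Slc6a8. Against 1-day array a these stood at 1.17, 0.48, -0.62 and 1.18, so the chosen probe set was higher than both for Slc6a8 and lower than both for Slc6a17. A second kept probe set of Slc6a17 was lower than both too, at 1745 on the 7-day array, against 1784 and 3811 on 1-day arrays b and a. With the mean of its 5 probe sets, Slc6a17 stood at 0.13 relative to 1-day array b. That mean takes in a dim probe set that read 143 on the 7-day array, against 28.0 on 1-day array b (1.85). The other probe sets below the filter stood at -0.39 and -0.43. A second kept probe set of Slc6a8 also read higher, with 3760 on the 7-day array against 3121 and 432 on 1-day arrays b and a. Slc6a9, the glycine transporter GlyT1, read 2096 on the 7-day array, against 1150 on 1-day array b and 1414 on 1-day array a, a log2 difference of 0.86 from array b and 0.56 from array a. The other probe sets of Slc6a9 lay below the filter and read lower on the 7-day array, at 96.5 against 189 and at 88.4 against 154 on 1-day array b, so the higher value rests on a single probe set. Slc6a15, a neutral amino acid carrier of neurons, read 694 on the 7-day array, against 1150 on 1-day array b and 79.1 on 1-day array a. It was thus lower than array b by a log2 difference of -0.72 and higher than array a by 2.90.

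The other Slc6a genes were dim. The plasma membrane dopamine transporter Slc6a3 read 130 on the 7-day array, against 154 and 1326 on 1-day arrays b and a. The glycine transporter of inhibitory neurons, Slc6a5, read 317 on the 7-day array, against 270 and 1345. The proline transporter Slc6a7 read 347 on the 7-day array, against 343 and 2519. The GABA transporters Slc6a11 and Slc6a13 read 45.6 and 149 on the 7-day array, 9.01 and 42.8 on 1-day array b, with 489 and 357 on 1-day array a. Slc6a20a and Slc6a20b, carriers of proline and related imino acids, read 619 and 365 on the 7-day array, 365 and 22.9 on 1-day array b, with 413 and 759 on 1-day array a. Slc6a14 and Slc6a18 read 101 and 460 on the 7-day array, 179 and 27.1 on 1-day array b, with 605 and 494 on 1-day array a. In each of these genes except Slc6a20a the value on 1-day array a was the highest of the 3.

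Among the sodium-coupled carriers of neutral amino acids, SNAT2 (Slc38a2) and SNAT1 (Slc38a1), which bring glutamine and alanine into cells, lay near 1-day array b. Slc38a2 differed by -0.08 from array b and by 0.50 from array a. Slc38a1 read 6055 on the 7-day array, against 7553 and 4685 on 1-day arrays b and a (-0.32 and 0.37). Its second kept probe set read 2042, against 3568 and 3815, a difference of -0.80 from array b, so the size of the difference depended on the probe set. Slc38a10 read 7446 on the 7-day array, against 7404 and 6021, a difference of 0.01 from array b that became -0.17 with median centring. Slc38a7, which exports glutamine from lysosomes, read 554 on the 7-day array, against 860 on 1-day array b and 2691 on 1-day array a, and lay below both (-0.62 and -2.25). Its adjusted p in limma was 1 (log2 difference -1.43 ± 1.67 SE, 1 array at 7 days and 2 at 1 day). The remaining Slc38a genes were below the filter. Slc38a4, a carrier of neutral amino acids in liver, read 54.4 on the 7-day array, against 24.5 and 2168, and Slc38a3, the glutamine carrier SN1, read 41.1, against 55.4 and 201. Slc38a5 read 81.1 on the 7-day array, against 377 and 786, Slc38a6 read 224, against 16.3 and 648, and the lysosomal arginine sensor Slc38a9 read 160, against 157 and 964.

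The Slc1a family holds the neutral amino acid exchangers ASCT1 and ASCT2 and the glutamate transporters that clear this transmitter. Slc1a4 (ASCT1) read 3378 on the 7-day array, against 4259 on each 1-day array, the closest agreement of the 1-day pair among the kept members, and its log2 difference was -0.33 from both. Slc1a5 (ASCT2) read 1734 on the 7-day array, against 2046 and 1571 on 1-day arrays b and a. Slc1a1, the neuronal glutamate transporter EAAC1, read 1728 on the 7-day array, against 1886 and 3326, and a second kept probe set read 1579, against 1891 and 2906, so both were below both 1-day arrays. Slc1a3, the glial glutamate transporter GLAST, read 908 on the 7-day array, against 926 and 106. Its second kept probe set read 1010 on the 7-day array, against 727 and 2121, so its probe sets disagreed in which 1-day array was brighter. Slc1a2, the main glutamate transporter of astrocytes, and Slc1a6 lay below the filter, at 387 and 487 on the 7-day array, 173 and 16.8 on 1-day array b, with 464 and 1121 on 1-day array a.

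Amino acid shortage is known to raise several of these carriers through the transcription factor ATF4, which binds a short element with the core TGATGNAA. To show where that core lies near the start of transporter genes, the 250 bases before the annotated start were searched on both strands in the 65 members with a promoter in RefSeq (build GRCr8). It was found in 3 of the 65, or 4.62%, and in 2.01% of 11700 promoters of genes on the array. A match describes letters and is not a measured site, and the motif was picked after the expression values had been seen. The 3 sequences follow, 5′ to 3′ on the gene's strand, with the core or its reverse complement in capitals. Slc1a4 lies at chr14:98761563-98761812 on the minus strand, Slc38a1 at chr7:129681402-129681651 on the minus strand and Slc7a1 at chr12:11664238-11664487 on the plus strand.
Slc1a4: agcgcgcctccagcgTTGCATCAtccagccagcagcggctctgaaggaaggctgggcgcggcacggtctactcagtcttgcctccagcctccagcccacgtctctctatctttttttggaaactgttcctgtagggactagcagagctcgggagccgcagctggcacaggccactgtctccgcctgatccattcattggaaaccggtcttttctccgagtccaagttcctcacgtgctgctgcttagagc
Slc38a1: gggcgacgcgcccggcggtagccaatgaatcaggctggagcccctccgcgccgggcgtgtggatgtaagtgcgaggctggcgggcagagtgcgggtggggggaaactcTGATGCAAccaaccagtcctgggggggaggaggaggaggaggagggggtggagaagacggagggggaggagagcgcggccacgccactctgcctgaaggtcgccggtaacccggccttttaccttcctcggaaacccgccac
Slc7a1: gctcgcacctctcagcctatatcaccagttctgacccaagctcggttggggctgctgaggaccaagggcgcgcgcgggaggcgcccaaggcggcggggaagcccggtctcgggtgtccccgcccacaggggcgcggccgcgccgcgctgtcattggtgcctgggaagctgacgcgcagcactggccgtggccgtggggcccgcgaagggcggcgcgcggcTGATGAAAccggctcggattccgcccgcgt
The 3 genes are the ASCT1 exchanger, SNAT1 and the cationic amino acid transporter CAT1, and on the 7-day array they differed from 1-day array b by -0.33, -0.32 and -0.04 (log2). Of 6 other motifs searched on both strands in the same 250 bases, the cyclic AMP response element TGACGTCA was found in 1 member, Slc38a6 (1.54%, beside 2.64% of promoters on the array). The E-box CACGTG was in 15.4% of members beside 7.85%, the hypoxia element core ACGTG, which the E-box contains, in 32.3% beside 21.0%, and the antioxidant element core TGACNNNGC in 15.4% beside 12.3%. The GC box GGGCGG was in 40.0% beside 54.2%, and the serum response element, searched in a single form, in 0 members beside 0.0684%.

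Heteromeric exchangers pair a heavy chain of the Slc3a family with a light chain of the Slc7a family that does the transport. The bright pair was Slc3a2 with the light chains of the large neutral amino acid exchangers, which carry tyrosine, the precursor of catecholamines. Slc7a5 (LAT1) read 8456 on the 7-day array, against 10332 and 4121 on 1-day arrays b and a. Slc7a8 (LAT2) read 7581 on the 7-day array, against 8157 and 3101. Relative to 1-day array b, Slc3a2, Slc7a5 and Slc7a8 stood at -0.19, -0.29 and -0.11, and relative to 1-day array a at 1.56, 1.03 and 1.29, so all 3 lay between the 1-day arrays. The light chains that exchange cationic for neutral amino acids were dimmer, with Slc7a6 at 2299 on the 7-day array, against 3251 and 3789, and Slc7a7 at 2113, against 2023 and 2415. Slc7a6 lay below both 1-day arrays (-0.50 and -0.72), and so did Slc7a6os, the gene beside it, at 3364 against 3864 and 4859.

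The cystine and glutamate exchanger light chain Slc7a11, which supplies cystine for glutathione, read 1016 on the 7-day array, against 514 on 1-day array b and 1404 on 1-day array a. Its log2 difference was 0.96 from array b and -0.46 from array a, which puts it inside the range of the 1-day pair. The second heavy chain, Slc3a1 or rBAT, known for cystine and basic amino acid uptake in kidney and gut, behaved alike, with 1538 on the 7-day array, against 715 and 2038. Its log2 difference was 1.09 from array b, the highest of the kept members, and -0.40 from array a. The usual partner of Slc3a1, Slc7a9, was dim at 158 on the 7-day array, against 48.1 and 638, as was the kidney light chain Slc7a13 at 179, against 43.0 and 2987. The light chains Slc7a10 and Slc7a12 lay below the filter, with Slc7a10 at 399 on the 7-day array, against 52.7 and 236, and Slc7a12 at 48.6, against 51.6 and 2102.

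The Slc7a genes that work without a heavy chain include the cationic amino acid transporters, which import arginine and lysine. Slc7a1 (CAT1) read 6156 on the 7-day array, against 6330 on 1-day array b and 12020 on 1-day array a. Its second kept probe set read 5764 on the 7-day array, against 5680 and 6811, a difference of 0.02 from array b where the first had -0.04. Slc7a14, a lysosomal relative of these carriers, read 4570 on the 7-day array, against 6903 and 4328, a log2 difference of -0.59 from array b, next to the 1.5-fold limit, and of 0.08 from array a. Slc7a4, a relative whose transport activity is uncertain, read 1958 on the 7-day array, against 1237 and 2197, which is 0.66 above array b and -0.17 relative to array a. Slc7a2 and Slc7a3, the other cationic carriers, were dim, at 112 and 216 on the 7-day array, 138 and 346 on 1-day array b, with 180 and 489 on 1-day array a.

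**Figure D4:**
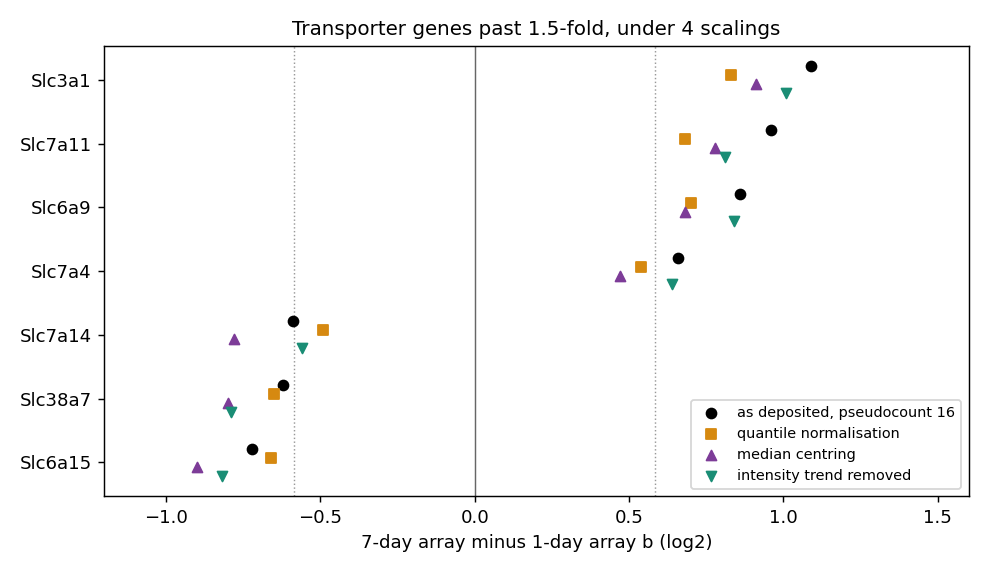
The 7 genes past 1.5-fold are shown with their log2 difference of the 7-day array from 1-day array b under 4 scalings, and dotted lines mark 1.5-fold. Each gene keeps its side of 0, and Slc7a4 (0.54 and 0.47) and Slc7a14 (-0.49 and -0.56) fall short of the line under 2 scalings each.

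Glucose carriers were led by GLUT3. Slc2a3 read 11097 on the 7-day array, against 13542 and 5191 on 1-day arrays b and a, a log2 difference of -0.29 from array b. Slc2a1, the widely expressed glucose transporter GLUT1, read 2431 on the 7-day array, against 2906 and 1315 (-0.26 and 0.88). Slc2a13, a proton-coupled myo-inositol carrier, read 2815 on the 7-day array, against 3317 and 1849, while its second kept probe set read 2544, against 1987 and 5660, so the direction differed between its probe sets. Slc2a8, an intracellular glucose carrier, read 1550 on the 7-day array, against 1326 and 3510, and Slc2a6 read 764, against 586 and 111. The insulin-responsive carrier of muscle and fat, Slc2a4 (GLUT4), lay below the filter with 372 on the 7-day array, against 130 and 645. The liver carrier Slc2a2 read 29.5 on the 7-day array, against 7.45 and 654. The fructose carrier Slc2a5 read 281 on the 7-day array, against 430 and 1018, and the urate carrier Slc2a9 read 77.7, against 73.2 and 283.

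Among the sodium-coupled Slc5a carriers, the glucose transporters were dim, and the kept members were a vitamin, an inositol and a choline carrier. Slc5a6, which takes up biotin and pantothenate, read 11009 on the 7-day array, against 9263 and 7987 on 1-day arrays b and a, and so lay above both (0.25 and 0.46). Slc5a3, the myo-inositol transporter that responds to salt, read 3729 on the 7-day array, against 4349 and 7795. Its second probe set lay below the filter, and the mean of both differed from array b by 1.17 in place of -0.22, so the direction rests on the chosen probe set. Slc5a7, the choline transporter of cholinergic nerve endings, read 606 on the 7-day array, against 705 and 88.6. The glucose transporters Slc5a1 and Slc5a2 read 334 and 34.6 on the 7-day array, 31.3 and 49.6 on 1-day array b, with 1201 and 153 on 1-day array a. The iodide transporter Slc5a5 read 219 on the 7-day array, against 21.3 and 1627, Slc5a11 read 194, against 99.3 and 358, and Slc5a12 read 101, against 5.25 and 1322.

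Of the monocarboxylate carriers (Slc16a), MCT1 was the brightest on the 7-day array and on 1-day array b. Slc16a1 read 10587 on the 7-day array, against 14868 and 5625 on 1-day arrays b and a, a log2 difference of -0.49 from array b and 0.91 from array a. Its other probe set was dim, at 50.3 against 25.4 and 237, and the mean of both differed from array b by 0.09, so the direction rests on the bright probe set. Slc16a10, which carries aromatic amino acids, read 2432 on the 7-day array, against 3505 and 2661, and was below both (-0.52 and -0.13). Slc16a12, a creatine carrier, read 8291 on the 7-day array, against 6681 and 6489, and was above both (0.31 and 0.35), though its second kept probe set, at 1085, lay between 709 and 2053. The lactate exporter Slc16a3 (MCT4) read 800 on the 7-day array, against 753 and 1823. Slc16a6 read 991 on the 7-day array, against 1191 and 2377, but 1032, against 793 and 245, on its second kept probe set. MCT2 (Slc16a7) read 493 on the 7-day array, against 428 and 531, and Slc16a8, Slc16a9 and Slc16a13 read 197, 159 and 25 on the 7-day array, 172, 212 and 329 on 1-day array b, with 756, 802 and 196 on 1-day array a.

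In the Slc17a family, named for phosphate but holding vesicular and lysosomal carriers, sialin was the kept member. Slc17a5 (sialin), which exports sialic acid from lysosomes, read 1678 on the 7-day array, against 1520 and 504 on 1-day arrays b and a, a difference of 0.14 from array b that became -0.04 with median centring. The vesicular glutamate transporters Slc17a7 and Slc17a6 read 398 and 250 on the 7-day array, 135 and 120 on 1-day array b, with 1079 and 452 on 1-day array a. The kidney and liver anion carriers Slc17a1, Slc17a2, Slc17a3 and Slc17a4 read 30 to 236 on the 7-day array, 11.9 to 153 on 1-day array b and 141 to 3460 on 1-day array a. Of the proton-coupled amino acid carriers, Slc36a2 read 1437 on the 7-day array, against 1616 and 3039, below both. Slc36a1 read 151 on the 7-day array, against 69.0 and 129, and Slc36a3 read 295, against 31.1 and 403.

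By their median, the 43 members below the filter were brightest on 1-day array a, as were all genes below it. The filter used the 7-day array and 1-day array b only. Genes below it were thus picked for low values on those arrays and not on array a, which favours higher values on array a. Their median intensity was 194 on the 7-day array, against 73 and 645 on 1-day arrays b and a, beside 241, 169 and 776 for all 4819 genes below the filter. On the 7-day array 32 of the 43 read higher than on 1-day array b, beside 3128 of all 4819 such genes. The median log2 difference was 0.80, beside 0.39. Lower values than on 1-day array a were read by 39 of the 43, beside 3987 of the 4819 (median -1.80, beside -1.75). The rank correlation across the 43 genes was 0.243 for the 7-day array with 1-day array b and 0.080 for the 1-day arrays a and b. For all 4819 genes below the filter these values were 0.569 and 0.239. The brightest of the 43 members on 1-day array a was Slc17a1, at 209 on the 7-day array, against 143 and 3460 on 1-day arrays b and a. Carriers named above for kidney were not alike on array a. The light chain Slc7a13 read 2987 there, while Slc17a2 and Slc17a3 read 195 and 141. The proline transporter Slc6a7 and the liver carrier Slc38a4 were bright there too, at 2519 and 2168. The kidney tubule markers Umod and Kap read 20.9 and 48.0 on the 7-day array and 21.1 and 26.8 on 1-day array b. On 1-day array a they read 1494 and 1242, while the kidney markers Slc12a1 and Aqp2 read 87.9 and 150. Dim markers of other tissues did not all behave alike. The fat gene Fabp4 peaked at 555 on array b (95.8 on array a), as did the liver gene Apoa1 at 245 (131 on array a). Those named next peaked on array a, though below its median intensity of 1580. The muscle gene Tnnt3 read 242 on the 7-day array, against 54.9 and 1569 on 1-day arrays b and a, the fat gene Plin1 read 41.6, against 286 and 1510, and the liver gene Alb read 226, against 137 and 979. The summed level of the 4 kidney markers was 217 on the 7-day array, against 172 and 2974 on 1-day arrays b and a, and their part in the values of array a was not tested.

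**Figure D5:**
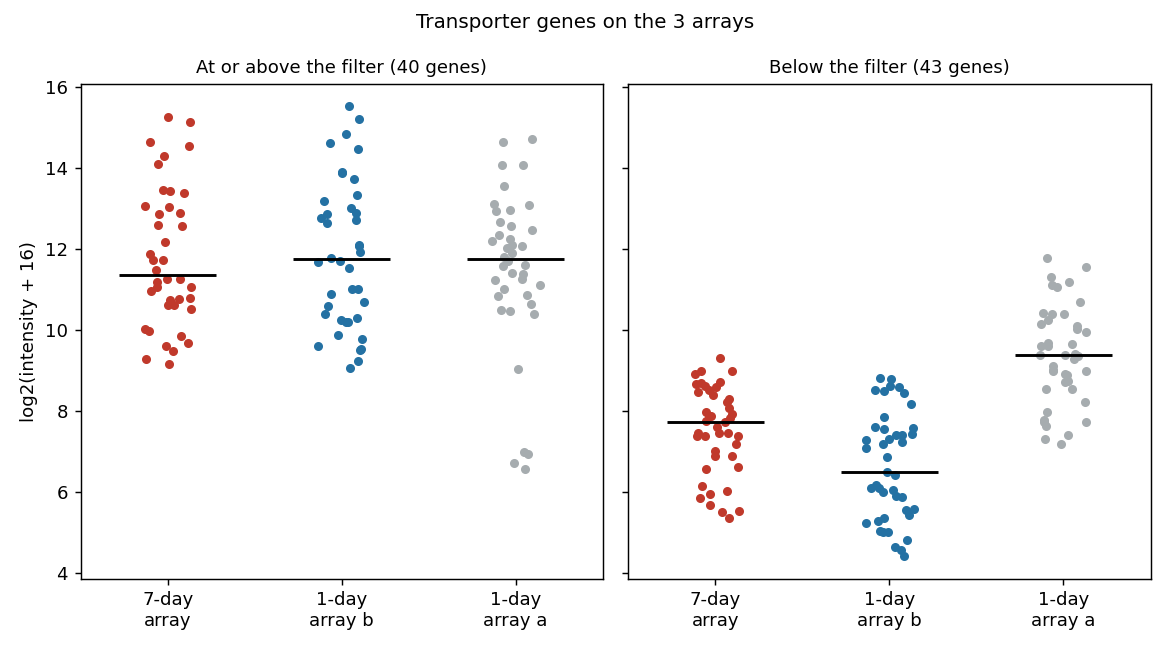
Points are transporter genes on each array, as log2(intensity + 16) on the y axis, with the 40 kept genes on the left and the 43 below the filter on the right; black bars are medians, and points are spread sideways for legibility. By median, 1-day array a (intensity 645), which the filter did not use, lies on the right above the 7-day array (194) and 1-day array b (73).

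Genes that work with these carriers were described from lists of pathway genes that are not members. Of all 9398 kept genes 3.39% lay at least 1.5-fold apart in each direction. That share stands beside each 1.5-fold count here and in the next paragraph, and such small lists cannot be told from it. Of 8 kept partners and chaperones, 0 lay 1.5-fold apart between the 7-day array and 1-day array b in either direction, and their median was -0.01. Among them Bsg, the chaperone of MCT1 and MCT4, read 48918 on the 7-day array, against 49317 and 14756 on 1-day arrays b and a, and Sgk1, a kinase that promotes surface delivery of several carriers, read 8091, against 9611 and 3397. Of 19 kept genes of glucose and lactate use, 0 were past 1.5-fold and the median was 0.03. The glycolytic enzyme Pgam1 stood at 0.51 relative to 1-day array b and at -0.20 relative to array a. Hk1, the first enzyme of glycolysis in brain-type tissue, stood at -0.39 and 0.25. Of 22 kept genes of amino acid sensing at the lysosome, 1 was at least 1.5-fold higher and 0 were lower, with a median of 0.08. The higher gene was Castor1, an arginine sensor (0.76 from array b and 0.27 from array a).

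Of 15 kept genes of glutamate, glutamine, GABA and glycine metabolism, 0 were at least 1.5-fold higher and 1 lower. That gene was Oat, of ornithine metabolism, with 3872 on the 7-day array, against 6350 and 649 on 1-day arrays b and a, and the list median was 0.09. Of 6 kept genes of creatine and taurine synthesis and use, 0 were at least 1.5-fold higher and 1 lower. That gene was Cdo1, which makes the taurine precursor from cysteine, with 5197 on the 7-day array, against 9218 and 6663, and the list median was -0.23. Of 14 kept genes of the transcriptional response to amino acid shortage, 1 was at least 1.5-fold higher and 1 lower, with a median of -0.04. The higher gene was Chac1, which breaks down glutathione (0.99 from array b but -1.06 from array a). The lower gene was Atf3, a stress-induced transcription factor (-1.11 and -0.37). Atf4 itself read 47407 on the 7-day array, against 48301 and 17085 on 1-day arrays b and a. Adrenal cortex markers stood higher as well, with 7 of 7 kept markers higher on the 7-day array than on 1-day array b (median 0.38, summed level 1169350 against 892772, and 1598342 on 1-day array a), beside 48.1% of all kept genes. Endothelial markers were higher in 4 of 5 (median 0.09) and chromaffin markers in 5 of 9 (median 0.20), with Gata3, Phox2a, Slc18a1 and Ddc lower at -0.88, -0.47, -0.40 and -0.23. Relative to 1-day array a the same genes stood at -0.19, 0.26, 3.28 and 1.86. White blood cell markers were lower in 3 of 4 (median -0.33), 2 of them by at least 1.5-fold. Relative to 1-day array a those 3 were higher (Cd68 2.49, Tyrobp 0.21 and Cd163 0.15). The remaining marker, Ptprc, was at least 1.5-fold higher, so the list did not move 1 way. It read 996 on the 7-day array, against 440 and 1686 on 1-day arrays b and a, a log2 difference of 1.15 from array b. The part of cell composition in the transporter values was not tested.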

How the data were processed

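Values in the deposited table are linear intensities that the authors had already summarised to probe sets and scaled. Their software was not given in the sources used here. Trimmed at 2%, means of the 3 arrays (2501.0, 2501.0 and 2500.7) are nearly equal, so all arrays appear scaled to a common total, and a difference in total RNA is not visible. Of 31099 probe sets, 57 controls were dropped. Names came from the platform annotation, and 20826 probe sets had 1 symbol, 436 several and 9780 none. Of those with 1 symbol, 20758 were updated through the RefSeq table of GRCr8. Values became log2(intensity + 16). For counts of genes, 1 probe set per gene was taken and 9398 of 14217 genes were kept. Limma used all gene probe sets with a 3-array mean of at least 9.60, an intensity trend, and two-sided Benjamini-Hochberg adjustment. The steps were tested on simulated data in which all 3 arrays had the spread of the 7-day array and 1-day array b. In the real data array a lay farther off. Over kept genes its log2 difference from array b had an SD of 1.24, beside 0.32 for the 7-day array. The simulation therefore cannot show whether limma could call genes here. Groups came from the sample titles. Members, gene lists and the rule for named genes (the brightest of each family, those past 1.5-fold, preset carriers and whole families) were chosen with earlier results of these data known, and promoter motifs after the values were seen. Alternatives were pseudocounts of 1 and 64, quantile normalisation, median centring, removal of a lowess trend (span 0.5), other filters and probe set rules, limma without a trend or with robust = TRUE, and leaving out each 1-day array. R 4.3.3, limma 3.58.1, Python 3.11.15, statsmodels 0.14.6 and matplotlib 3.10.9 were used.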

Additional observations from a re-analysis of the deposited data

How the results depend on the processing

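Numbers of members past 1.5-fold, 4 higher and 3 lower on the 7-day array than on 1-day array b, rest on the filter and on which 1-day array is used. Without a filter 28 of 83 members were higher and 8 lower (16.6% and 8.84% of all genes), and with a filter at the 75th percentile 0 of 23 were higher and 1 lower (0.919% and 1.77%). Median centring gave 6 of 40 lower (9.04% of all genes). Leaving out each 1-day array in turn gave 4 to 14 of 40 higher and 3 to 10 lower, and the upper values, without array b, stand beside 36.4% and 23.7% of all genes, so those counts are near the share in all genes. Counts of 7 members above both 1-day arrays and 11 below both became 11 and 22 without a filter (22.7% and 25.8% of all genes) and 4 and 7 with the 75th percentile filter (33.3% and 16.7%). Removal of the intensity trend gave 11 above both (29.3%). Median centring gave 2 below both, with 6.69% of all genes against 22.9% without it. With 1 of the 1-day arrays left out, 13 to 23 members were above and 17 to 27 below the other (48.1% to 56.3% and 43.7% to 51.9% of all genes). Against 1-day array a in place of array b, Slc7a14 had 0.08 in place of -0.59, Slc7a4 -0.17 in place of 0.66, Slc3a1 -0.40 in place of 1.09, Slc6a15 2.90 in place of -0.72 and Slc7a11 -0.46 in place of 0.96. With the mean of all probe sets, Slc6a9 had -0.24, Slc6a17 0.13, Slc16a1 0.09 and Slc5a3 1.17, each of the opposite sign to the chosen probe set, as were Slc1a3 (0.45), Slc2a13 (0.06) and Slc16a6 (0.06). The cause was not tested. The median member difference of -0.18 was 0.06 without a filter, where the dim members enter. Limma called 0 members under each of its 12 alternatives. Leaving out a 1-day array leaves it no residual degree of freedom, so that fit gave no test. No paired analysis was possible because 1 array was available at 7 days. Leaving out Slc7a6os, an alternative added after seeing the data, changed the counts by at most 1. Signal over background limits the 43 dim members, for which no detection calls were used here.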

Other observations

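Several members are neighbours on their chromosome in the RefSeq annotation of GRCr8, used here for gene order only, and neighbours did not always share a level. Slc38a1, Slc38a2 and Slc38a4 lie next to each other in that order. On the 7-day array Slc38a1 and Slc38a2 read 6055 and 35845 and Slc38a4 read 54.4. On 1-day array b the 3 genes read 7553, 37970 and 24.5, and on 1-day array a 4685, 25359 and 2168. Slc36a1, Slc36a2 and Slc36a3 also adjoin, with Slc36a2 kept and the other two dim. The run of Slc17a1, Slc17a2, Slc17a3 and Slc17a4 was below the filter throughout, as was the pair Slc6a20a and Slc6a20b. Slc7a6 and Slc7a6os, neighbours with 0 genes between them, were kept and stood at -0.50 and -0.20 relative to 1-day array b.

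Of the 83 genes, 21 had more than 1 probe set and 10 had more than 1 that was kept. In 4 of these 10, namely Slc1a3, Slc2a13, Slc7a1 and Slc16a6, the kept probe sets differed in the sign of their log2 difference between the 7-day array and 1-day array b. The chosen probe sets held 0 of the kinds whose names mark probes shared between genes.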
